A study of Arabidopsis thaliana with 18 samples.

Results

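Fes1A (AT3G09350), AT1G71000 and AT5G48570 are 3 genes of the Arabidopsis thaliana protein-folding machinery. They were chosen as a list of 3 loci, with earlier results of these data known. Fes1A is a partner of the chaperone HSP70, AT1G71000 encodes a DnaJ-domain protein, and AT5G48570 encodes a peptidyl-prolyl isomerase that the RefSeq gene table also calls FKBP65 or ROF2. They are 3 of 16548 genes that had an array feature of their own. Each of the 3 had exactly 1 such feature, so no second feature could be set against it.

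HSP70 binds stretches of unfolded protein and lets them go in a cycle driven by ATP. DnaJ-domain proteins, also called J-domain proteins, bring client proteins to HSP70 and speed up its ATP hydrolysis. Nucleotide exchange factors then release ADP so that the cycle can start again, a role shown for the yeast relative of Fes1A, and in Arabidopsis Fes1A is known to bind cytosolic HSP70 and to be needed for acquired heat tolerance. Peptidyl-prolyl isomerases turn the peptide bond before proline, a slow step of folding, and the FKBP family holds the targets of the drug FK506. FKBP65 is known as a heat-induced member that works with HSP90 and modulates a heat shock factor.

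The study asked which genes CRF6 controls under oxidative stress and cytokinin. CRF6 (CYTOKININ RESPONSE FACTOR 6) belongs to the AP2/ERF family of transcription factors. Whole seedlings of 10 days of the crf6 mutant, of a line named CRF6oe and of the wild type (WT, Col-0) were floated on 3 mM MES buffer for 1 h. The treatments were 20 mM H2O2, or 2 µM of the cytokinin benzyl adenine (BA), each for 6 h, while the third set of each genotype is labelled untreated. All solutions, those of the controls included, held 0.2% DMSO. The 9 groups are crf6 with H2O2, crf6 with BA and crf6 untreated, CRF6oe with H2O2, CRF6oe with BA and CRF6oe untreated, and WT with H2O2, WT with BA and WT untreated, each with 2 arrays. The labels give neither the allele of crf6, nor the promoter or number of lines behind CRF6oe, nor the harvest time of untreated seedlings.

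Values are on the log2 scale as deposited, and a difference of 1 is a 2-fold change. Replicates of a group correlated over genes at 0.977 to 0.991, and the 6 CRF6oe arrays stood apart from the other 12, with correlations of 0.917 to 0.947. Where CRF6oe is set against WT, the genotype and that separate set of arrays cannot be told apart. No feature was paired with CRF6 alone, so the genotype labels were not checked on it. Of the 9 shoot and 11 root markers listed, 1 shoot gene and 2 root genes were measured. The antenna gene LHB1B2 had group means of 10.60 to 12.13, and the root hair expansins EXPA7 and EXPA18 of 3.43 to 4.75. None of them was called with H2O2 or BA against untreated seedlings. Between CRF6oe and WT, LHB1B2 was called lower with H2O2 (-0.86) and with BA (-1.53), and was not called untreated (-0.50). Of the 2 root genes, 1 was called higher in CRF6oe than in WT with H2O2, where their median was 0.65. In these comparisons 29.5% of all genes were called with H2O2 and 24.4% with BA. Against untreated seedlings, LHB1B2 changed with BA by -0.93 in CRF6oe. The changes of EXPA7 and EXPA18 against untreated seedlings were negative in each genotype. Their medians were -0.82 in crf6, -0.38 in CRF6oe and -0.83 in WT with H2O2, and -0.46, -0.67 and -0.72 with BA. The part of these 3 markers in the results was not tested. In whole seedlings, fewer cells of a type and less RNA per cell cannot be told apart. The labels do not say whether the 2 samples of a group were separate cultures, so the p-values rest on the spread between 2 samples that may be technical repeats.

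H2O2 raised all 3 genes in all 3 genotypes, by 2.04 to 4.06 on the log2 scale, or 4.11-fold to 16.7-fold. AT1G71000 had the largest log2 change in each genotype, Fes1A came next and AT5G48570 last, and the differences between genes were not tested. By the limma fit of all 18 arrays, with Benjamini-Hochberg adjustment over all features with 1 gene, 3 of 3 were called higher at an adjusted p under 0.05 in each genotype. Among all genes, 0.864% were called higher with H2O2 in crf6, 1.41% in CRF6oe and 1.50% in WT. The H2O2 arrays of each of the 3 genes lay wholly above the untreated ones in each genotype, which was so for 21.1% of all genes in crf6, 25.9% in CRF6oe and 17.5% in WT. Since the 3 genes were chosen with earlier results of these data known, their counts beside these shares are not separate evidence.

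Fes1A, the exchange factor relative, stood at 7.95 and 7.61 in H2O2-treated crf6 seedlings, against 4.66 and 4.79 in untreated crf6 seedlings. In CRF6oe the H2O2 arrays gave 7.91 and 7.79, against 5.28 and 5.05 untreated. In WT they gave 8.86 and 8.19, against 5.07 and 4.54 untreated. No treated array came near an untreated one, and the highest Fes1A values were those of WT with H2O2. The rise was 3.06 ± 0.23 (SE) in crf6 (8.33-fold, adjusted p = 5.69e-06, limma), 2.69 ± 0.23 in CRF6oe (6.44-fold, adjusted p = 2.06e-05) and 3.72 ± 0.23 in WT (13.1-fold, adjusted p = 6.52e-07). Among all 16548 genes ordered by their change, Fes1A was number 8 in crf6, number 9 in CRF6oe and number 7 in WT. These calls held under each alternative run, with adjusted p-values of at most 0.00818.

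AT1G71000, the DnaJ-domain gene, stood at 7.49 and 7.24 in crf6 with H2O2, against 3.77 and 3.35 in untreated crf6. In CRF6oe it stood at 6.35 and 6.52 with H2O2, against 3.90 and 3.17 untreated. In WT it stood at 7.69 and 7.62 with H2O2, against 3.33 and 3.87 untreated. Its untreated values lay below the median feature of their arrays, at -0.92 to -1.68 relative to it, and its H2O2 values lay 1.55 to 3.06 above it. The rise was 3.80 ± 0.24 in crf6 (13.9-fold, adjusted p = 1e-06, limma), 2.90 ± 0.24 in CRF6oe (7.48-fold, adjusted p = 1.87e-05) and 4.06 ± 0.24 in WT (16.7-fold, adjusted p = 4.05e-07). It had the third largest change of all genes in crf6, the sixth largest in CRF6oe and the fourth largest in WT. The highest adjusted p under any alternative was 0.0149, in CRF6oe.

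AT5G48570, the FKBP-type isomerase, stood at 7.52 and 7.63 in crf6 with H2O2, against 5.73 and 5.34 in untreated crf6. CRF6oe gave 8.56 and 7.76 with H2O2, against 6.23 and 5.78 untreated. WT gave 8.70 and 8.15 with H2O2, against 6.05 and 5.17 untreated. No H2O2 array overlapped an untreated one, and its standard error was the largest of the 3 genes. The rise was 2.04 ± 0.35 in crf6 (4.11-fold, adjusted p = 0.00547, limma), 2.16 ± 0.35 in CRF6oe (4.46-fold, adjusted p = 0.00626) and 2.81 ± 0.35 in WT (7.02-fold, adjusted p = 3.08e-04). It was number 46 of all genes in crf6, number 15 in CRF6oe and number 22 in WT. The crf6 call was lost without crf6 untreated replicate 2 (1.85, adjusted p = 0.0889) and without crf6 H2O2 replicate 2 (1.99, adjusted p = 0.0530). The CRF6oe call was lost without CRF6oe H2O2 replicate 1 (1.76, adjusted p = 0.0665) and in a fit of only the 4 arrays compared (2.16, adjusted p = 0.0679), while the WT call held under each alternative.

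**Figure D1:**
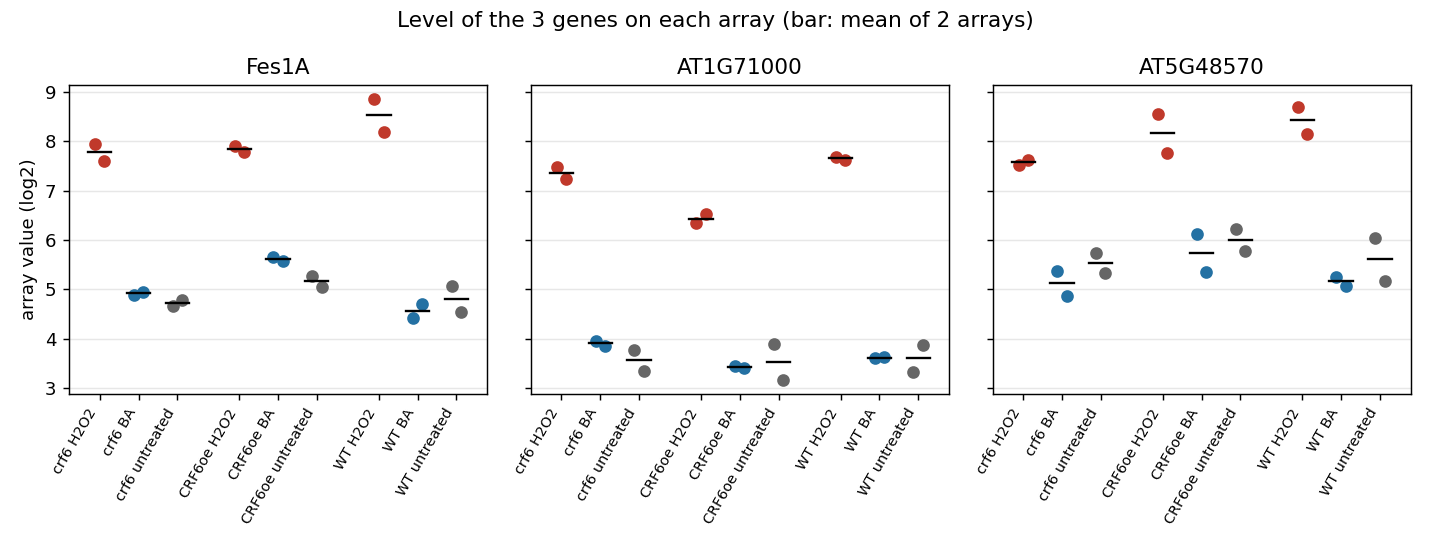
Array values (log2) of the 3 genes in the 9 groups of genotype and treatment, with a point for each array and a bar for the mean of 2 arrays. Every H2O2 array lies above every BA and untreated array of the same gene, the nearest pair being 7.52 in crf6 with H2O2 and 6.23 in untreated CRF6oe for AT5G48570.

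BA left the 3 genes without a called change in any genotype, 0 of 3 by limma in each, where 0.236% of all genes were called in crf6, 0.212% in CRF6oe and 0.163% in WT. None of the 9 comparisons had an unadjusted p under 0.05. The type-A response regulator ARR15 (AT1G74890), an early target of cytokinin, rose on the same arrays by 3.94 ± 0.35 in crf6, 3.81 ± 0.35 in CRF6oe and 3.73 ± 0.35 in WT (adjusted p at most 2.44e-04, limma).

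Fes1A stood at 4.89 and 4.95 with BA in crf6, against 4.66 and 4.79 untreated, and the change was 0.19 with a 95% interval of -0.30 to 0.69. In CRF6oe it stood at 5.65 and 5.58 with BA, against 5.28 and 5.05 untreated, a change of 0.45 (-0.04 to 0.95, unadjusted p = 0.0704, adjusted p = 0.697, limma). In WT it stood at 4.41 and 4.70 with BA, against 5.07 and 4.54 untreated, a change of -0.26 (-0.75 to 0.24). The BA arrays lay above the untreated ones without overlap in crf6 and CRF6oe, as for 21.2% and 19.1% of all genes there, and overlapped them in WT.

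AT1G71000 stood at 3.96 and 3.85 with BA in crf6, against 3.77 and 3.35 untreated, a change of 0.34 with an interval of -0.17 to 0.85. Its changes were -0.10 (-0.61 to 0.41) in CRF6oe, where BA gave 3.45 and 3.41, and 0.02 (-0.49 to 0.53) in WT, where BA gave 3.60 and 3.63. AT5G48570 stood at 5.38 and 4.87 with BA in crf6, at 6.13 and 5.35 in CRF6oe and at 5.26 and 5.07 in WT. Its changes were negative in each genotype, -0.41 (-1.15 to 0.33) in crf6, -0.27 (-1.01 to 0.48) in CRF6oe and -0.45 (-1.19 to 0.30) in WT, and the arrays overlapped the untreated ones each time. With 2 arrays in a group, the 9 intervals together ran from -1.19 to 0.95 on the log2 scale.

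**Figure D2:**
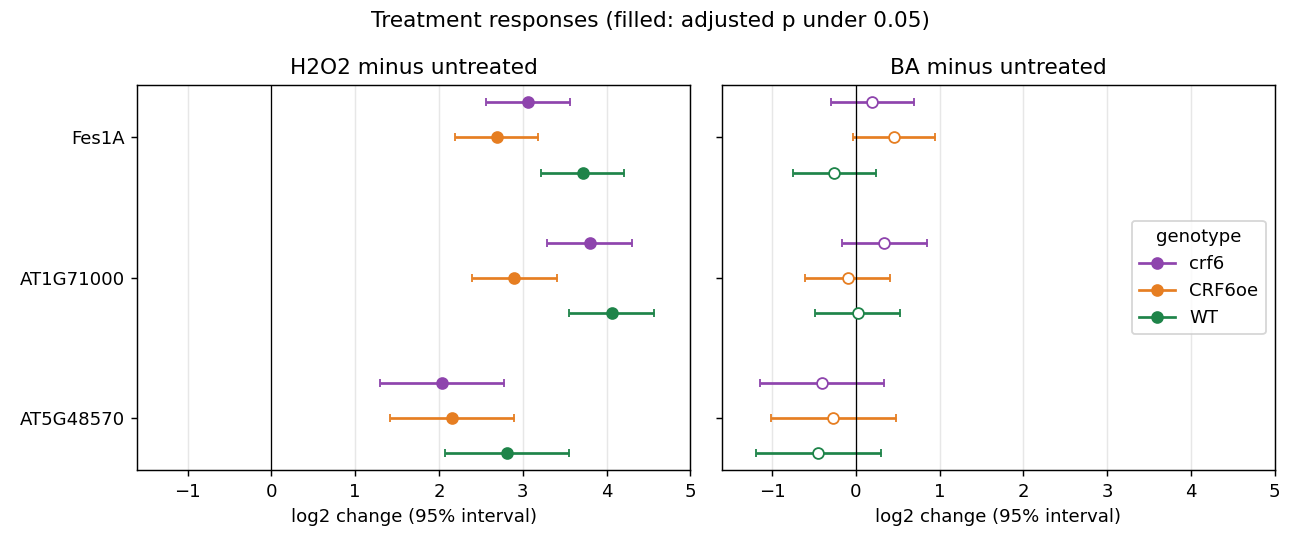
Log2 change of the 3 genes with H2O2 (left) and with BA (right) against untreated seedlings of the same genotype, with 95% intervals and filled points for an adjusted p under 0.05. With H2O2 all 9 points are filled and lie between 2.04 and 4.06, and with BA none is filled and the points lie between -0.45 and 0.45.

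H2O2 was also set against BA directly, since the labels give the 6 h of treatment for these 2 groups and not for untreated seedlings. All 3 genes were called higher with H2O2 than with BA in each genotype (limma), as were 1.51% of all genes in crf6, 3.00% in CRF6oe and 2.88% in WT. Fes1A was higher with H2O2 by 2.86 ± 0.23 in crf6, 2.23 ± 0.23 in CRF6oe and 3.97 ± 0.23 in WT. AT1G71000 was higher by 3.46 ± 0.24, 3.01 ± 0.24 and 4.04 ± 0.24 in the same order. AT5G48570 was higher by 2.45 ± 0.35, 2.42 ± 0.35 and 3.26 ± 0.35. The highest of these 9 adjusted p-values was 0.00183, and all 9 calls held under every alternative. The comparisons with BA and with untreated seedlings share the H2O2 arrays, so they are not separate evidence.

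Under H2O2 the crf6 mutant had lower values than WT for all 3 genes, with no overlap of arrays, but none of the differences was called. Fes1A stood at 7.95 and 7.61 in crf6, against 8.86 and 8.19 in WT, a difference of -0.74 ± 0.23 (95% interval -1.24 to -0.25, unadjusted p = 0.00624, adjusted p = 0.512, limma). AT5G48570 stood at 7.52 and 7.63 in crf6, against 8.70 and 8.15 in WT, a difference of -0.85 ± 0.35 (-1.59 to -0.11, unadjusted p = 0.0279, adjusted p = 0.670). AT1G71000 stood at 7.49 and 7.24 in crf6, against 7.69 and 7.62 in WT, a difference of -0.29 ± 0.24 (-0.80 to 0.22, adjusted p = 0.865). Arrays lower in crf6 than in WT without overlap were found for 15.7% of all genes, and 0% of genes were called by limma, with 1141 at an unadjusted p under 0.05.

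In untreated seedlings the 3 genes differed between crf6 and WT by at most 0.08 in size, with overlapping arrays: Fes1A by -0.08 (-0.58 to 0.41), AT1G71000 by -0.03 (-0.54 to 0.47) and AT5G48570 by -0.08 (-0.82 to 0.67). With BA the differences were 0.37 (-0.13 to 0.86), 0.29 (-0.22 to 0.80) and -0.04 (-0.78 to 0.70) in the same order. Limma called 0% of all genes in untreated seedlings, with 855 at an unadjusted p under 0.05, and 0% with BA, with 746. The H2O2 response itself was 82.3% of the WT rise in crf6 for Fes1A, 93.7% for AT1G71000 and 72.6% for AT5G48570, as shares of log2 changes. The difference of the responses, crf6 minus WT, was -0.66 ± 0.33 for Fes1A (unadjusted p = 0.0645), -0.26 ± 0.34 for AT1G71000 and -0.77 ± 0.49 for AT5G48570, each with an adjusted p of 1 (limma). Here too 0% of genes were called, with 480 at an unadjusted p under 0.05. The difference of the BA responses was 0.45 ± 0.33, 0.32 ± 0.34 and 0.04 ± 0.49, again with an adjusted p of 1, 0% of genes called and 283 at an unadjusted p under 0.05.

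Under H2O2, 2 of the 3 genes were called lower in CRF6oe than in WT, on arrays that stood apart, and the Fes1A call was not stable. AT1G71000 stood at 6.35 and 6.52 in CRF6oe, against 7.69 and 7.62 in WT, a difference of -1.22 ± 0.24 (0.430-fold, adjusted p = 0.00178, limma), and this call held under all 26 alternatives. Fes1A stood at 7.91 and 7.79 in CRF6oe, against 8.86 and 8.19 in WT, a difference of -0.68 ± 0.23 (0.626-fold, adjusted p = 0.0407). The Fes1A call was lost under 10 of 26 alternatives, and without WT H2O2 replicate 1 the difference was -0.34 (adjusted p = 0.331). It was also lost without either H2O2 array of CRF6oe and without either untreated or either BA array of crf6, which do not enter the means. AT5G48570 stood at 8.56 and 7.76 in CRF6oe, against 8.70 and 8.15 in WT, with overlapping arrays and a difference of -0.26 ± 0.35 (adjusted p = 0.614). Calls in either direction covered 29.5% of all genes in this comparison, with 2463 of 16548 called lower. Arrays lower in CRF6oe without overlap were found for 27.9% of all genes.

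With BA, Fes1A was higher in CRF6oe, at 5.65 and 5.58, against 4.41 and 4.70 in WT, a difference of 1.07 ± 0.23 (2.09-fold, adjusted p = 0.00358, limma). That call held under all 26 alternatives, in a comparison where 24.4% of all genes were called. AT1G71000 differed by -0.19 ± 0.24 and AT5G48570 by 0.58 ± 0.35 with BA, neither called (adjusted p = 0.646 and 0.267). In untreated seedlings none of the 3 was called between CRF6oe and WT, where 25.2% of all genes were: the differences were 0.35 ± 0.23 for Fes1A, -0.06 ± 0.24 for AT1G71000 and 0.39 ± 0.35 for AT5G48570. The BA arrays of Fes1A and of AT5G48570 lay higher in CRF6oe than in WT without overlap, as did those of 30.5% of all genes. With BA the AT1G71000 arrays gave 3.45 and 3.41 in CRF6oe, against 3.60 and 3.63 in WT.

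The H2O2 rise in CRF6oe was 72.3% of the WT rise for Fes1A, 71.6% for AT1G71000 and 76.7% for AT5G48570, as shares of log2 changes. The difference of the responses, CRF6oe minus WT, was -1.03 ± 0.33 for Fes1A (unadjusted p = 0.00708, adjusted p = 0.203, limma). It was -1.15 ± 0.34 for AT1G71000 (unadjusted p = 0.00391, adjusted p = 0.156) and -0.66 ± 0.49 for AT5G48570 (adjusted p = 0.623). None passed, in a test that called 0.574% of all genes. For the BA response the differences were 0.71 ± 0.33 for Fes1A (unadjusted p = 0.0479, adjusted p = 0.999), -0.12 ± 0.34 for AT1G71000 and 0.18 ± 0.49 for AT5G48570. There 0% of genes were called by limma, with 760 at an unadjusted p under 0.05.

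**Figure D3:**
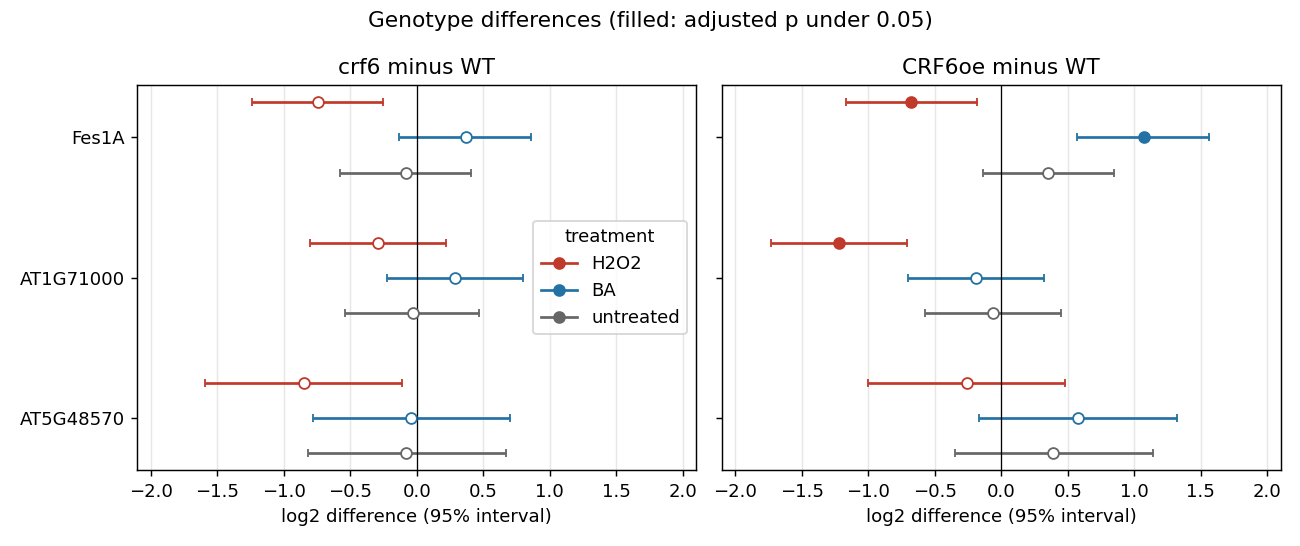
Log2 difference of the 3 genes between crf6 and WT (left) and between CRF6oe and WT (right) with H2O2, with BA and untreated, with 95% intervals and filled points for an adjusted p under 0.05. The left panel has no filled point, and the right panel has 3: Fes1A with H2O2 (-0.68), Fes1A with BA (1.07) and AT1G71000 with H2O2 (-1.22).

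Over the 9 groups the 3 H2O2 groups came first for each gene, and WT with H2O2 was the highest of all. For Fes1A the mean was 8.52 ± 0.47 (SD, n = 2) in WT with H2O2, 7.85 ± 0.09 in CRF6oe with H2O2 and 7.78 ± 0.24 in crf6 with H2O2, and the arrays of CRF6oe and crf6 overlapped. After a gap of 2.16 came CRF6oe with BA (5.62 ± 0.05) and CRF6oe untreated (5.16 ± 0.16). The untreated arrays of CRF6oe (5.28 and 5.05) and WT (5.07 and 4.54) overlapped. The other 4 groups, crf6 with BA (4.92 ± 0.05), WT untreated (4.81 ± 0.38), crf6 untreated (4.72 ± 0.09) and WT with BA (4.55 ± 0.21), each overlapped the next.

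For AT1G71000 the order was WT (7.66 ± 0.05), crf6 (7.36 ± 0.17) and CRF6oe (6.44 ± 0.12) with H2O2. For none of the 3 genes were crf6 and CRF6oe tested against each other. A gap of 2.53 separated these from crf6 with BA (3.90 ± 0.08), and the remaining 5 groups, from WT with BA (3.62 ± 0.02) through untreated WT (3.60 ± 0.38), crf6 (3.56 ± 0.29) and CRF6oe (3.53 ± 0.52) to CRF6oe with BA (3.43 ± 0.02), overlapped each other in turn. For AT5G48570, WT (8.42 ± 0.38) and CRF6oe (8.16 ± 0.56) with H2O2 overlapped, and crf6 with H2O2 (7.57 ± 0.08) followed them in order. Next, after a gap of 1.57, were untreated CRF6oe (6.01 ± 0.32), CRF6oe with BA (5.74 ± 0.56), untreated WT (5.61 ± 0.62) and untreated crf6 (5.53 ± 0.27), which overlapped in turn. WT with BA (5.16 ± 0.13) and crf6 with BA (5.12 ± 0.36) came last and overlapped each other. Outside H2O2 the highest group mean of Fes1A and of AT5G48570 was that of a CRF6oe group, and for AT5G48570 its arrays overlapped those of untreated WT.

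Other genes of protein folding were read from lists by role, chosen with earlier results of these data known. Among HSP70 chaperones, 5 of 18 listed genes were measured. Their changes with H2O2 against untreated seedlings ran from -0.05 to 1.12 in crf6, from -0.25 to 0.69 in CRF6oe and from -0.16 to 1.53 in WT. List medians were 0.10, -0.01 and 0.65 in the same order, against 0.01, 0.05 and -0.02 for all genes. Of the 5, 0 were called in crf6, 0 in CRF6oe and 1 in WT. The call was AT3G09440, a cytosolic HSP70, whose H2O2 and untreated means were 9.61 and 8.49 in crf6, 9.29 and 8.60 in CRF6oe, and 10.10 and 8.57 in WT. Its changes were 1.12 ± 0.29 (adjusted p = 0.0700, limma), 0.69 ± 0.29 (adjusted p = 0.215) and 1.53 ± 0.29 (adjusted p = 0.00812), the last lost without WT untreated replicate 1. Set against BA, it was higher with H2O2 by 1.31 in crf6, 1.13 in CRF6oe and 1.90 in WT. All 3 differences were called (adjusted p = 0.0208, 0.0359 and 0.00117, limma). These calls were lost under 4 of 27, 7 of 26 and 1 of 27 alternatives. HSP70 genes are close in sequence, so which of them gave a signal is uncertain.

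Besides Fes1A, 2 of the 14 listed exchange factors were measured, its relatives Fes1B (AT3G53800) and Fes1C (AT5G02150). Neither was called with H2O2 in any genotype. Fes1B changed by -0.17 ± 0.28 in crf6, -0.34 ± 0.28 in CRF6oe and -0.29 ± 0.28 in WT, at means of 7.01 to 8.65 over the 9 groups. Fes1C changed by -0.32 ± 0.33, -0.21 ± 0.33 and 0.11 ± 0.33, at means of 6.16 to 6.89. The other BAG and GrpE genes of the list were not analysed here.

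Of 32 listed J-domain genes 15 were measured, AT1G71000 among them. Of the other 14, 1 was called higher with H2O2 in crf6, 2 in CRF6oe and 2 in WT, where 1 more was called lower, and their medians were 0.06, -0.05 and 0.07. Among all 16548 genes, 143, 233 and 249 were called higher in the same order, and 226 were called lower in WT. AT3G14200, listed as a relative of AT1G71000, rose in each genotype, by 1.39 ± 0.25 in crf6, 1.59 ± 0.25 in CRF6oe and 1.77 ± 0.25 in WT. Its call in crf6 and that in CRF6oe were each lost under 3 alternatives. AT2G20560 rose by 2.27 ± 0.27 in CRF6oe and 1.85 ± 0.27 in WT, and stood at 0.75 ± 0.27 in crf6 (adjusted p = 0.306, limma). Its difference of responses between crf6 and WT was -1.10 ± 0.39 (adjusted p = 1). AT1G44160 fell by 1.21 in WT (SE 0.24, adjusted p = 0.0121), a call lost in the fit of 4 arrays and without each WT array of the comparison. AT1G56300, also listed as a relative of AT1G71000, had changes of -0.01 ± 0.25, -0.20 ± 0.25 and 0.12 ± 0.25 in crf6, CRF6oe and WT.

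The adaptors that link HSP70 to HSP90 had 3 measured members, and no HSP90 or HSP100 gene of that list of 15 was analysed here. Hop3 (AT4G12400) was the called member in each genotype. Its H2O2 arrays gave 6.19 and 5.94 in crf6, against 4.02 and 3.50 untreated, then 7.00 and 6.61 in CRF6oe, against 4.61 and 4.06, and 7.30 and 6.57 in WT, against 3.78 and 3.44. The rises were 2.31 ± 0.29, 2.47 ± 0.29 and 3.33 ± 0.29 (adjusted p = 5.89e-04, 5.85e-04 and 1.48e-05, limma), and they held under every alternative. Hop1 and Hop2, the other 2, had changes between -0.18 and 0.64 with no call.

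Of 22 listed FKBP-type isomerases 13 were measured, and AT5G48570 was the 1 called with H2O2 in each genotype. The other 12 had medians of -0.04 in crf6, 0.08 in CRF6oe and -0.06 in WT, and ranges of -0.30 to 0.19, -0.61 to 1.07 and -0.24 to 0.20. Its closest listed relative ROF1 (AT3G25230) was not analysed here. Of 15 cyclophilin-type isomerases, which catalyse the same reaction with another fold, 6 were measured and 0 were called by limma. Their changes ran from -0.09 to 0.37, from -0.27 to 0.53 and from -0.39 to 0.40 in crf6, CRF6oe and WT.

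Of 25 listed heat shock factors and co-regulators only DREB2C (AT2G40340), a dehydration and heat response factor, was measured. It rose by 1.86 ± 0.22 in crf6, 1.09 ± 0.22 in CRF6oe and 1.50 ± 0.22 in WT (adjusted p = 3.55e-04, 0.0177 and 0.0011, limma), and the CRF6oe call was lost without each of its 4 arrays in turn. In a fit of only the 4 arrays compared, the CRF6oe and WT calls were lost. Small heat shock proteins, which hold unfolding proteins until HSP70 takes them over, had 11 of 18 listed genes measured. Among all genes, 0.864% were called higher with H2O2 in crf6, 1.41% in CRF6oe and 1.50% in WT. Of the 11 small heat shock proteins, 7 were called higher in crf6, 9 in CRF6oe and 9 in WT, with medians of 1.44, 2.84 and 2.49. Of these calls 3 in crf6, 2 in CRF6oe and 3 in WT were lost under at least 1 alternative, and that of AT1G52560 in crf6 (1.23) under 15 of 27. The 4 with the largest rise in WT were AT2G29500 (5.18 ± 0.29), AT1G53540 (4.43 ± 0.35), AT1G07400 (3.73 ± 0.24) and the mitochondrial AT5G51440 (3.62 ± 0.25). AT5G51440 rose by 3.04 ± 0.25 in crf6 and 2.84 ± 0.25 in CRF6oe. With BA, 0 genes of these 8 lists were called by limma in any genotype.

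**Figure D4:**
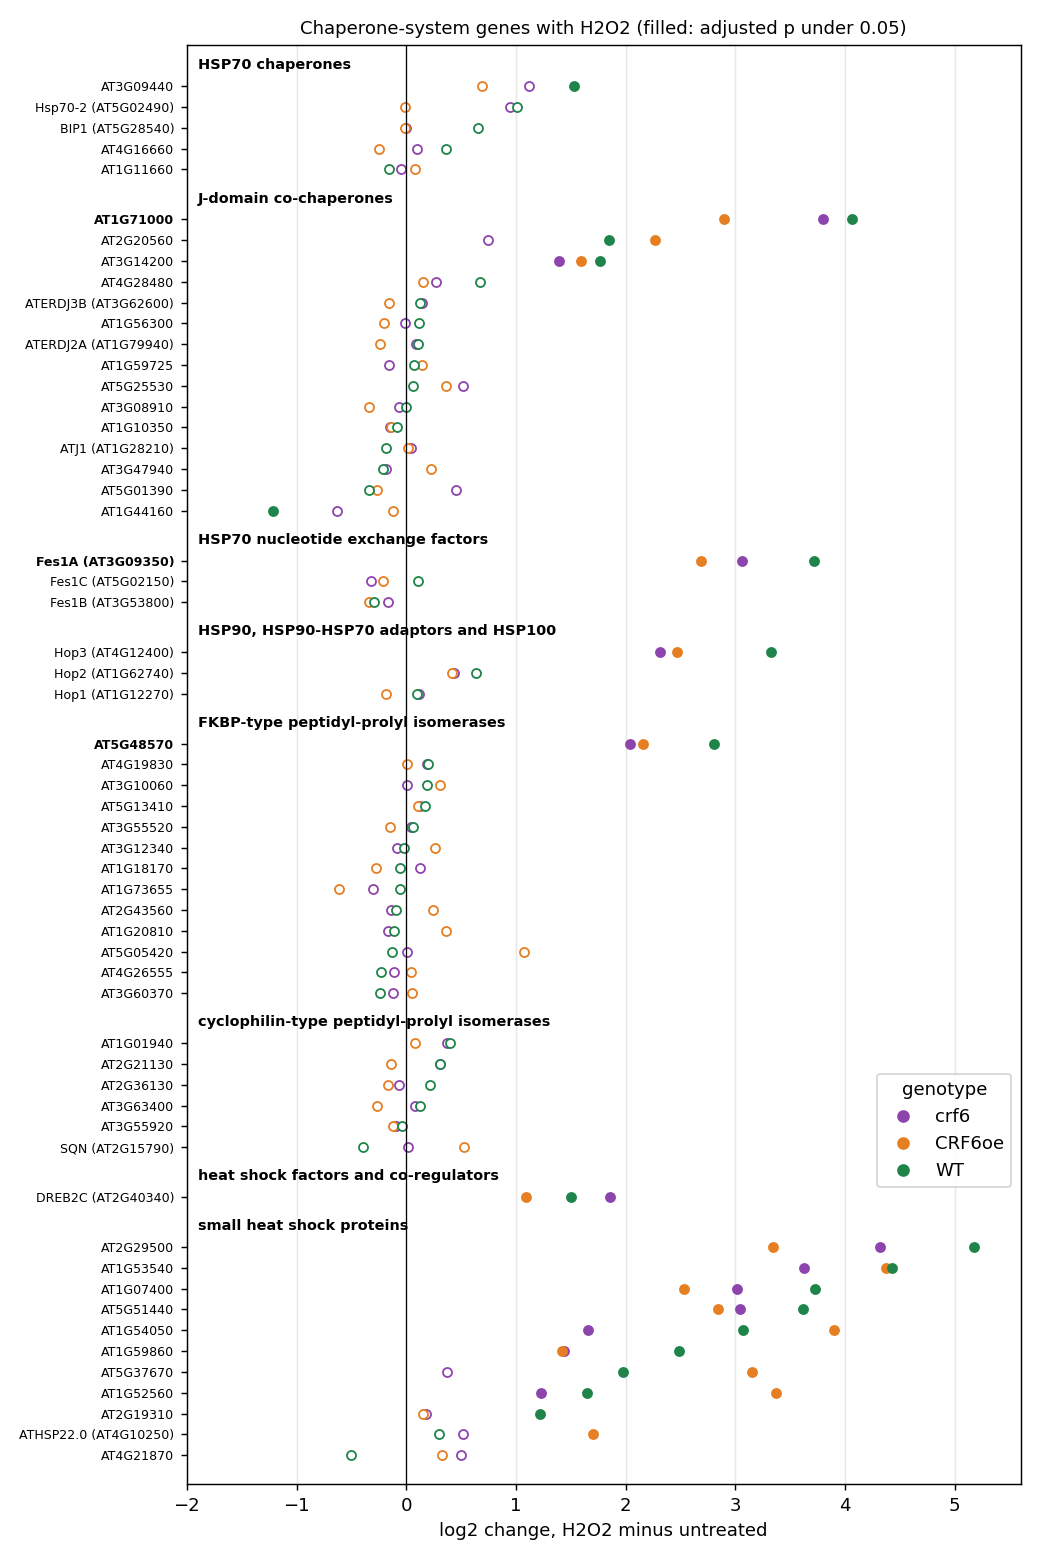
Log2 change with H2O2 against untreated seedlings for each measured gene of 8 chaperone lists, coloured by genotype (crf6, CRF6oe, WT) and filled at an adjusted p under 0.05, with Fes1A, AT1G71000 and AT5G48570 in bold. AT1G71000, Fes1A and AT5G48570 lie at 2.04 to 4.06, to the right of the other measured members of their own lists in each genotype.

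Profiles over the 9 groups were compared by centring each gene's group means on their own mean and taking the root mean square difference, in log2 units, from each of the other 16547 genes. For Fes1A the 5 nearest were AT5G51440 (0.22), Hop3 (0.28), the UDP-glycosyltransferase UGT73B5 (0.30), AT5G16980 (0.30) and AT5G48570 (0.38). For AT5G48570 they were Hop3 (0.21), UGT73B5 (0.29), AT1G76600 (0.33), Fes1A (0.38) and CCR2, a cinnamoyl-CoA reductase gene (0.41). For AT1G71000 they were AT5G51440 (0.46), AT5G22140 (0.47), Fes1A (0.47), AT5G40000 (0.60) and the beta-glucosidase gene BGLU28 (0.60). Fes1A and AT5G48570 thus stood among the 5 nearest of each other, while AT5G48570 and AT1G71000 were 0.70 apart. Counted by distance, AT5G48570 was number 12 for AT1G71000, and AT1G71000 was number 82 for AT5G48570. The groups share their arrays between genes, and the 3 H2O2 groups set most of each profile. Ranked by Pearson's r over the 9 group means instead, 3 of the 5 nearest genes were shared for Fes1A, 1 for AT5G48570 and 0 for AT1G71000.

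**Figure D5:**
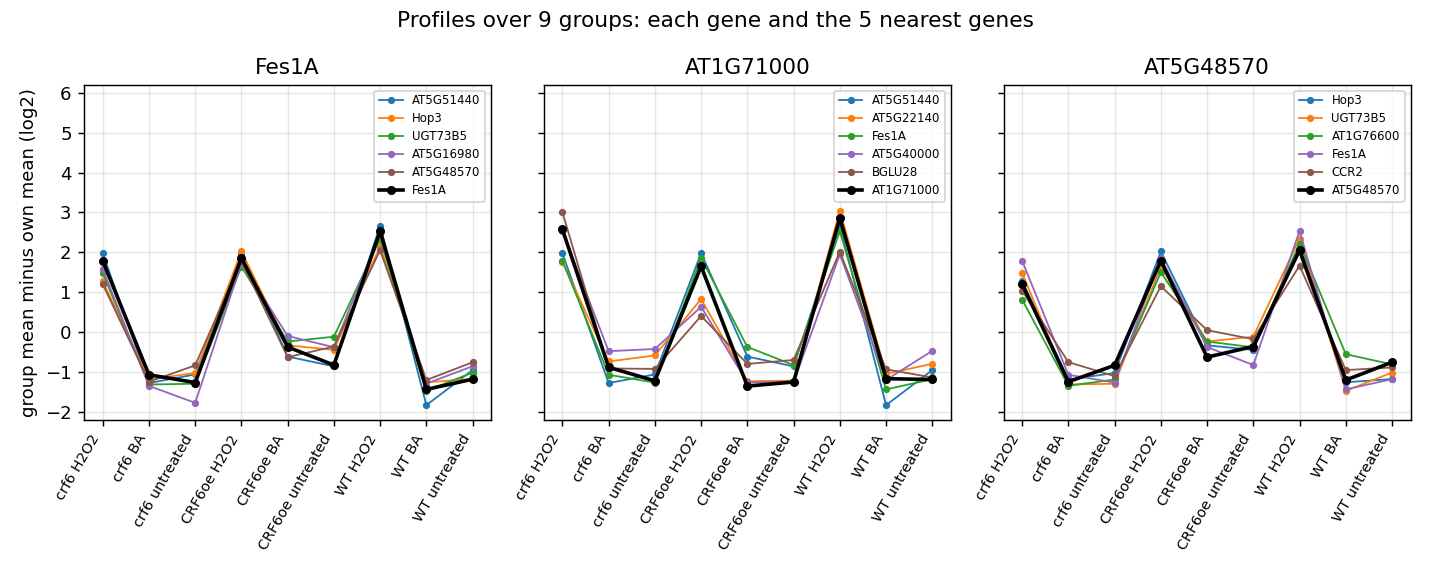
Group means of each of the 3 genes (black) and of its 5 nearest genes (colours), each centred on its own mean over the 9 groups (log2). All profiles peak in the 3 H2O2 groups, and the nearest genes differ from Fes1A by 0.22 to 0.38, from AT1G71000 by 0.46 to 0.60 and from AT5G48570 by 0.21 to 0.41.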

How the data were processed

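RNA of 18 seedling samples was labelled with biotin as cRNA primed from poly(A) tails and read on one-colour arrays, per the labels' protocols. The authors deposited 1 log2 value per feature and array. That scale was taken from the values, with array medians of 4.63 to 4.98 and a maximum of 14.26, and the sources used here do not give the background correction, normalization or summary. Of 38408 features, 16722 were paired with exactly 1 gene, 759 with several and 20927 were not listed. The feature with the highest mean stood for a gene. Group means were fitted with limma 3.58.1 in R 4.3.3 to all 18 arrays (9 residual and 5.63 prior degrees of freedom), with two-sided contrasts and Benjamini-Hochberg adjustment over the 16722 features. The fit was checked on simulated data. The alternatives were other arrays, scalings, features and moderation, a replicate block and each array left out. The members and lists were chosen with earlier results of these data known. Named genes were the 3 members, called list genes with the largest H2O2 change in WT (up to 4 a list), listed relatives and the 5 nearest profiles. ARR15 was added afterwards. The number of arrays limits the precision. Sequences and coordinates were not used here.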

Additional observations from a re-analysis of the deposited data

Results flagged for a closer look

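AT5G22140, among the 5 genes with the profile nearest to AT1G71000, had an H2O2 response that differed between CRF6oe and WT by a test of the difference itself. Its arrays gave 5.69 and 6.08 with H2O2 in CRF6oe, against 3.95 and 3.73 untreated, and 8.28 and 7.93 with H2O2 in WT, against 4.09 and 4.44 untreated. The gene rose by 2.05 ± 0.25 in CRF6oe (adjusted p = 7.89e-04, limma), by 2.34 ± 0.25 in crf6 (adjusted p = 1.98e-04) and by 3.85 ± 0.25 in WT (adjusted p = 6.88e-07). The difference of these responses, CRF6oe minus WT, was -1.80 ± 0.36 (adjusted p = 0.0428, limma), in a test that called 0.574% of all genes. That call was lost under 18 of 26 alternatives, while the value stayed between -2.0 and -1.6. For crf6 minus WT, the same test called 0% of all genes, so AT5G22140 was not called there. The CRF6oe arrays stood apart from the others, and the genotype and that separate set of arrays cannot be told apart.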

How the results depend on the processing

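The H2O2 rises of Fes1A and AT1G71000 kept their direction and call in each genotype under each of the 26 or 27 alternatives, as did the AT5G48570 rise in WT and all 9 differences between H2O2 and BA. Without single arrays the AT5G48570 rise ran from 1.85 to 2.23 in crf6, losing its call at 1.85 and 1.99, and from 1.76 to 2.56 in CRF6oe, losing it at 1.76. With only the arrays compared, the CRF6oe call was lost at 2.16. The Fes1A difference between CRF6oe and WT with H2O2 lost its call with only the arrays compared (-0.68, adjusted p = 0.149, limma), with quantile normalization (-0.63, adjusted p = 0.0652) and with all features tested (-0.68, adjusted p = 0.0579), and ran from -1.01 to -0.34 without single arrays. The causes were not tested. Values that were not called also turned sign. The BA change of AT1G71000 in WT was -0.05 with quantile normalization and -0.07 with arrays centred on their medians. Without single arrays, BA changes ran from -0.52 to 0.01 for Fes1A in WT, from -0.25 to 0.29 for AT1G71000 in WT, and in CRF6oe from -0.47 to 0.26 for AT1G71000 and from -0.66 to 0.13 for AT5G48570. Differences of crf6 from WT ran, untreated, from -0.35 to 0.18 for Fes1A, from -0.30 to 0.24 for AT1G71000 and from -0.52 to 0.36 for AT5G48570, and with BA from -0.29 to 0.21 for AT5G48570. Differences of CRF6oe from WT ran, untreated, from -0.43 to 0.30 for AT1G71000 and from -0.05 to 0.84 for AT5G48570, and with H2O2 from -0.66 to 0.14 for AT5G48570. The difference of H2O2 responses between crf6 and WT ran from -0.53 to 0.01 for AT1G71000, and that of BA responses from -0.40 to 0.48 for AT5G48570. The difference of BA responses between CRF6oe and WT ran from -0.49 to 0.24 for AT1G71000 and from -0.26 to 0.62 for AT5G48570.

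Counts of genes called in either direction moved with the fit. With H2O2 against untreated they were 97 to 354 in crf6 (323 as reported), 30 to 551 in CRF6oe (433) and 155 to 542 in WT (475). With BA they were 3 to 49 in crf6 (39), 3 to 45 in CRF6oe (35) and 8 to 38 in WT (27). Between H2O2 and BA they were 190 to 636 (540), 76 to 1129 (905) and 191 to 1020 (839) in the same order. Between crf6 and WT they were 0 to 6 untreated, 0 to 19 with H2O2 and 0 to 1 with BA (0 each as reported). Between CRF6oe and WT they were 2683 to 4337 untreated (4174), 2213 to 4995 with H2O2 (4880) and 2635 to 4258 with BA (4045). For the difference of responses between CRF6oe and WT they were 1 to 100 with H2O2 (95) and 0 to 5 with BA (0).

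Replicate numbers were not taken to pair the samples, since only 7 of 36 pairs of groups had differences between replicates 1 and 2 that correlated over 0.1 (-0.202 to 0.331, median 0.038, across genes). Replicate 1 lay above replicate 2 in 8 of 9 groups for AT5G48570 and in 6 of 9 for Fes1A and for AT1G71000. With the replicate number as a block, no call of the 3 genes changed, the AT5G48570 rise in WT was 2.81 with an adjusted p of 8.44e-06 (limma), and 542 genes were called with H2O2 in WT. With 2 arrays a group the median standard error was 0.23 for a difference and 0.325 for a difference of responses, so small changes were not detectable here.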

Other observations

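Other chaperone lists were read between CRF6oe and WT, on the CRF6oe arrays that stood apart. There 29.5% of all genes were called in either direction with H2O2, 24.4% with BA and 25.2% untreated. By direction, 2417 of 16548 genes were called higher and 2463 lower with H2O2, 1938 and 2107 with BA, and 1842 and 2332 untreated. Of the 5 measured HSP70 chaperones, 4 were called lower in CRF6oe than in WT with H2O2, 3 lower and 1 higher with BA, and 3 lower untreated (limma, adjusted p under 0.05). Their medians of CRF6oe minus WT were -0.82 with H2O2, -0.71 with BA and -0.97 untreated, while those of all genes were 0.05, 0.02 and -0.01. Of the 11 small heat shock proteins, 4 were called higher and 1 lower with H2O2, 4 higher with BA and 4 higher untreated, with medians of 0.29, 0.30 and 0.05. Of the 14 J-domain genes other than AT1G71000, 1 was called higher and 3 lower with H2O2, 3 lower with BA and 4 lower untreated. Their medians were 0.03, -0.12 and -0.07. Of the 12 FKBP-type isomerases other than AT5G48570, 1 was called higher and 6 lower with H2O2, 8 lower with BA and 4 lower untreated. The medians of these 12 were -0.46, -1.01 and -0.42, with ranges of -1.18 to 1.31, -2.12 to 0.34 and -1.11 to 0.43. AT5G48570 itself, not called, stood at -0.26, 0.58 and 0.39, and its difference from the 12 was not tested. Between crf6 and WT, limma called 0 genes of these lists under any treatment, as for the whole array, where 1141, 746 and 855 genes had an unadjusted p under 0.05.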
